A study of Mus musculus with 6 samples.

Results

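Ependymal cells are the ciliated epithelium that lines the brain ventricles, and 499 nuclei of this kind were found among 75867 nuclei of the forebrains of 6 mice, a share of 0.658% with an exact 95% binomial interval of 0.601 to 0.718%. A nucleus was taken as ependymal where at least 3 of 6 genes of motile cilia (Foxj1, Ccdc153, Tmem212, Dnah12, Spag17 and Cfap44) had at least 1 unique molecular identifier (UMI, the count of 1 captured mRNA molecule). In addition it had at most 1 UMI summed over the choroid plexus genes Folr1, Kl and Clic6, at most 1 UMI summed over the neuronal genes Slc17a7, Slc17a6, Gad1 and Gad2, and under 10% of its UMIs from mitochondrial genes. The 6 genes therefore chose the nuclei, and their levels are a description and not a finding.

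The study profiled nuclei from frozen forebrain of 3 wild type (WT) and 3 Npc1-/- mice at postnatal day 16, without treatment, by droplet-based single nucleus RNA sequencing. The mutants were homozygous for the nih null allele of Npc1, which encodes the lysosomal cholesterol transporter lost in Niemann-Pick type C disease, and WT and mutant animals were hybrid offspring of heterozygotes on the BALB/cJ and C57BL6/J backgrounds. The null allele is carried by every cell of a mutant animal, so an ependymal value in these mice is not that of a loss limited to ependymal cells. The deposited barcodes end in a number from 1 to 6, called library 1 to library 6 here, but no source used here ties a number to a mouse or a genotype, so WT and Npc1-/- ependymal nuclei were not compared and every value below is over both genotypes.

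Ependymal cells derive from radial glia, stop dividing and, as they mature, build tufts of motile cilia whose beating moves the cerebrospinal fluid. A motile cilium has an axoneme of outer microtubule doublets around a central pair, with outer and inner dynein arms as its motors, radial spokes and nexin links that regulate them, and intraflagellar transport that brings its parts to the tip. The choroid plexus epithelium, which secretes the fluid, is the other ciliated epithelium of the ventricles, and astrocytes arise from the same radial glia.

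Libraries differed in depth and quality before any of the results below. They held 8215 to 16109 nuclei each, and the lowest UMI total of any nucleus ranged from 415 to 2172 between libraries. The barcode sequences of 1264 nuclei occurred in more than 1 library, 8 of them ependymal. The median mitochondrial share was 0.203% in ependymal nuclei and 0.0974% in all nuclei, and among libraries it ran from 0.0628 to 0.454% in ependymal nuclei. Intervals below are exact 95% intervals and cover counting error only. They say nothing about the spread between mice.

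Library 1 held 109 ependymal nuclei, 0.791% of its nuclei (0.650 to 0.954%). Library 2 held 105 (0.652%, 0.533 to 0.789%) and library 3 held 85 (0.575%, 0.459 to 0.710%). Library 4 held 92 (0.755%, 0.609 to 0.925%), library 5 held 56 (0.519%, 0.392 to 0.673%) and library 6 held 52 (0.633%, 0.473 to 0.829%). The share was thus between 0.519 and 0.791% in all 6 libraries. The interval of the lowest library ended at 0.673% and that of the highest began at 0.650%, and no difference between libraries was tested. Of the 92 nuclei of library 4, 21 were in cluster 3 and 59 in cluster 4, described below, and only 10 and 2 in clusters 1 and 2. The share of library 4 therefore rests mostly on clusters 3 and 4. The share depends on the rule, and was 1.11% at 2 or more of the 6 genes, 0.361% with no UMI of the excluded genes and 0.407% without the clusters 3 and 4 described below. The median depth of an ependymal nucleus was 3738 UMIs over all libraries, with 2627 UMIs in the library of lowest depth and 4407 UMIs in that of highest depth, against 4957 UMIs over all nuclei.

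Of the genes that chose the nuclei, Dnah12, an inner arm dynein heavy chain, was detected in 97.2% of the 499 nuclei and in 2.11% of all others. Cfap44, a component of the inner dynein tether, was detected in 91.6%, Tmem212 in 89.0% and Spag17, a central pair protein, in 87.4%. The transcription factor Foxj1, the regulator of motile ciliogenesis, was detected in 25.9% of ependymal and 1.38% of other nuclei. At the edge of the rule, the 87 nuclei with exactly 3 of the 6 genes held 12692 CPM (UMIs per 1000000 UMIs) summed over 90 other axonemal genes, and the 340 nuclei with exactly 2 of the 6 genes, which met both limits but were left out, held 2096 CPM. With 4, 5 and 6 of the genes the sum was 19519, 24057 and 29446 CPM. A further 200 nuclei had 3 or more of the genes and met the choroid plexus limit but carried more than 1 neuronal UMI. Their median depth was 9004.5 UMIs and their axonemal sum 8343 CPM.

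The label was also set beside 30 ependymal markers that the rule did not use, a list chosen with earlier results of these data known. All 30 were higher in ependymal nuclei than in all other nuclei, and their summed level was 12863 CPM (9874 to 18641 CPM over libraries) against 696 CPM. Choroid plexus nuclei, described below, held 4347 CPM of the same list, and 25 of the 30 were higher in ependymal nuclei than there. A gene was called higher where it had at least 10 UMIs in ependymal nuclei, its CPM was at least 2 times that of the other set and the interval of the ratio lay above 1, and lower where the ratio was at most 0.5 with an interval below 1. The ratios rest on UMIs summed over all nuclei of a set, with no test over mice. Over all 24013 genes tested, 2808 (11.7%) were higher and 1137 (4.73%) lower against all other nuclei. The median log2 ratio of all tested genes was 0.31, so a gene at that value was no different from the typical gene. The nuclei were chosen by 6 ciliary genes, and counts of other ciliary genes in the same nuclei describe them and are no independent support.

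Promoters of the axonemal genes were examined for the X-box, the binding motif of the RFX transcription factors, since Rfx2, Rfx3 and Rfx4 had higher levels in ependymal than in other nuclei (given below). Windows of the 250 bases before the RefSeq start were matched for 71 of the 90 axonemal genes and for 16317 of all tested genes (GRCm38). The left arm of the motif, GTTGCC on either strand, was present in 22 of the 71 (31.0%) and in 2026 of all 16317 windows (12.4%). It was also present in 5 of 17 windows of intraflagellar transport genes (29.4%), in 3 of 10 of choroid plexus markers (30%) and in 1 of 13 of astrocyte markers (7.69%). The full form, which contains the left arm, was searched only as GTTGCCNNGGNAAC, with a spacer of 2 bases and the right arm GGNAAC. It was in 1 of the 71 (1.41%) and in 0.343% of all windows. Forms with another spacer or right arm were not counted, so these shares do not cover every X-box. For comparison, the forkhead box GTAAACA was in 4 of the 71 (5.63%, against 3.09% of all) and the GC box CCGCCC in 28 (39.4%, against 50.9%). A match is a description of the sequence and not a measured site. The sequences below belong to a central pair gene of high level (Hydin), a central pair gene at like levels in ependymal and choroid plexus nuclei (Spag16), an outer arm light chain (Dynlrb2), an inner arm heavy chain (Dnah10), 2 nexin link genes (Drc1 and Iqca), 2 genes of the doublet wall (Enkur and Tekt1) and a nexin link gene that was called neither higher nor lower against all other nuclei (Gas8). Each is given 5′ to 3′ on the strand of the gene and ends at or before its start, with 1 match of the motif in capitals. Spag16 and Tekt1 each hold a further match, left in lower case.
Hydin (chr8:110266934-110266976, + strand): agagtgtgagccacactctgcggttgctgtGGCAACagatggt
Spag16 (chr1:69826837-69826902, + strand): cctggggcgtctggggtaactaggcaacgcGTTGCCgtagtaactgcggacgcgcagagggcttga
Dynlrb2 (chr8:116504934-116504999, + strand): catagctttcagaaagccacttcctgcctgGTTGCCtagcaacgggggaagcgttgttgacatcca
Dnah10 (chr5:124725035-124725084, + strand): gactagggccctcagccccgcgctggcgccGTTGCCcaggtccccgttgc
Drc1 (chr5:30281352-30281392, + strand): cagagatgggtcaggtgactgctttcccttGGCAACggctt
Iqca, full X-box (chr1:90153493-90153566, − strand): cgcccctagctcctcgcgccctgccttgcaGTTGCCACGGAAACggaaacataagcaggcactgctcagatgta
Enkur (chr2:21205366-21205429, − strand): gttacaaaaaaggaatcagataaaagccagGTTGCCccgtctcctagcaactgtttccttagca
Tekt1 (chr11:72361883-72361927, − strand): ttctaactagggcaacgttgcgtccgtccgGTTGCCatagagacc
Gas8 (chr8:123518751-123518816, + strand): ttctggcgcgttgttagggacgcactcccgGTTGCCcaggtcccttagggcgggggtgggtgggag

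Genes of the axoneme were far higher in ependymal nuclei than in the rest of the forebrain. The 90 genes of the dynein arms, docking and assembly factors, radial spokes and nexin links, central pair and doublet wall summed to 23122 CPM in library 1, 18335 CPM in library 2, 20157 CPM in library 3, 16536 CPM in library 4, 32412 CPM in library 5 and 27086 CPM in library 6. Every library lay above the range of all other nuclei, 1098 to 1174 CPM. The pooled level was 21563 CPM against 1142 CPM, a log2 ratio of 4.24 (4.23 to 4.25), and 3.42 where 2 of the 6 genes were enough. Of the 90 genes 85 were higher and 0 lower, where 11.7% of all tested genes were higher and 4.73% lower, and the median log2 ratio of the 90 was 4.87.

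**Figure D1:**
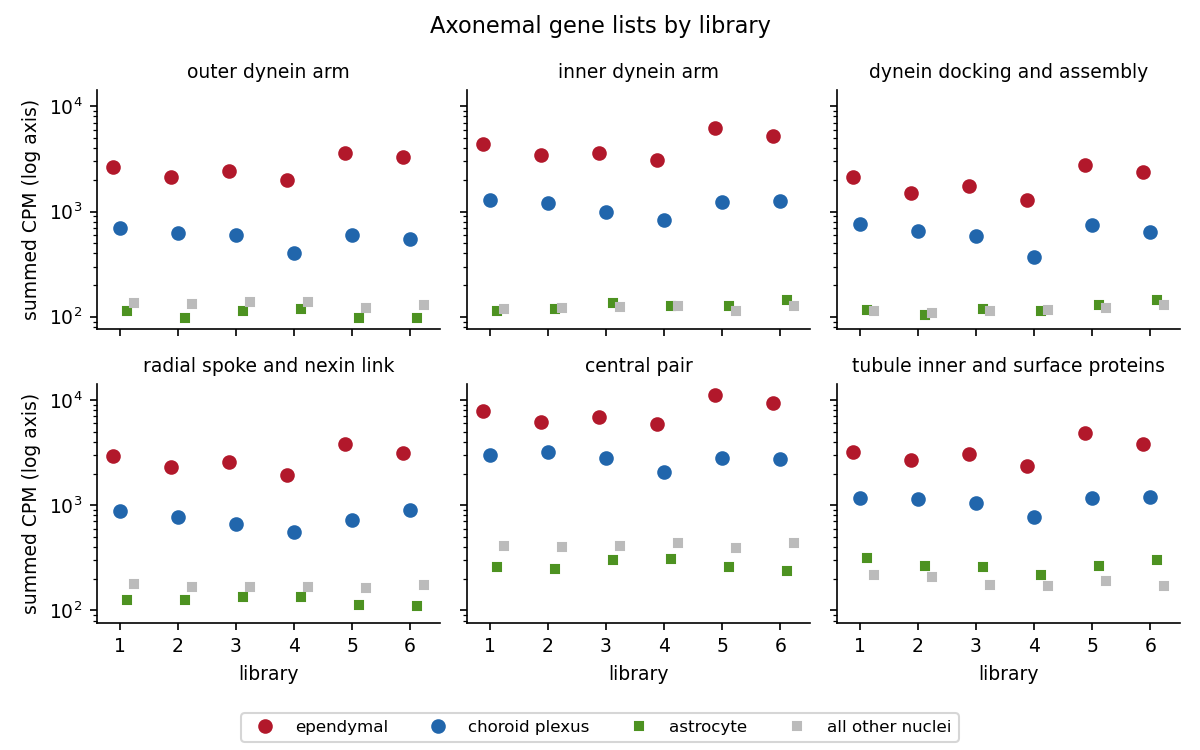
Summed CPM, on a log axis, of each of the 6 axonemal gene lists (panels) in libraries 1 to 6 for ependymal, choroid plexus, astrocyte and all other nuclei. In each panel the ependymal point of every library lies above the choroid plexus point of the same library, and the astrocyte and other points lie lowest.

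The outer dynein arms set the beat frequency of a cilium, and 7 of 8 measured genes were higher (log2 4.24, 4.20 to 4.27, for the sum). The call of Dnal4 was lost under TMM scaling (explained below), at 2 of the 6 genes, without library 4 and without the neuronal limit. Dnah5 (chr15:28203752-28472052), an outer arm heavy chain, was at 339, 353, 374, 350, 829 and 625 CPM in libraries 1 to 6 and at 11.8 CPM in all other nuclei. Libraries 5 and 6 were high and the other 4 close together, and the pooled level was 36.2 times that of other nuclei (33.9 to 38.7). Dnah11 was at 695 CPM against 8.46 CPM and Dnah9 at 678 CPM against 34.9 CPM. Dnah17, an outer arm heavy chain of sperm tails, had only 7 UMIs in ependymal nuclei, 2.93 CPM against 5.0 CPM, and was called neither higher nor lower. Dnai1 and Dnai2 were not analysed here.

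The inner arms, which shape the bend, followed with 11 of 12 genes higher (log2 5.05, 5.02 to 5.08). Wdr63, an intermediate chain, was at 446 CPM against 2.76 CPM, Dnah3 at 393 CPM against 5.04 CPM and Dnah6 at 835 CPM against 17.7 CPM. Dnah8, the gene of this list outside the calls, had 8 UMIs. It encodes an outer arm heavy chain of sperm tails, related to Dnah5, and is counted here with the inner arm list that holds it. Dnah7a, Dnah7b and Dnah7c, near-identical copies that can share reads, were at 460, 435 and 303 CPM, and the split between them is uncertain.

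Factors that assemble dynein in the cytoplasm or dock it on the doublets were higher for 15 of 16 genes (log2 3.99, 3.94 to 4.03). Armc4, part of the docking complex, was at 426 CPM against 4.73 CPM, and Ccdc114, another docking protein, at 305 CPM against 4.37 CPM. The cytoplasmic assembly factor Dnaaf3 was at 164 CPM against 1.33 CPM, although its span overlaps that of Tnni3 on the same strand. Ccdc39 and Ccdc40, the ruler of the axonemal repeat, were at 267 and 100 CPM against 41.8 and 3.25 CPM. Pih1d3 was listed with 0 UMIs in all nuclei.

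Radial spoke and nexin link genes were higher for 18 of 19 (log2 3.96, 3.93 to 4.0). Iqca, a nexin link ATPase, was at 153 CPM against 1.30 CPM, Cfap61, a spoke protein, at 599 CPM against 12.5 CPM and the spoke head protein Rsph4a at 75.3 CPM against 1.61 CPM. Gas8, the remaining gene, was at 35.2 CPM against 21.8 CPM (25 to 47 CPM over libraries), a ratio of 1.61 (1.28 to 2.0).

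Central pair genes were higher for 14 of 15 (log2 4.17, 4.15 to 4.19). Hydin (chr8:110266977-110610253), whose product forms a projection of the central pair, was at 915, 647, 767, 581, 1042 and 842 CPM in libraries 1 to 6. The lowest of the 6 libraries was far above the 6.65 CPM of all other nuclei, and the pooled ratio was 116 (109 to 122). The adenylate kinases Ak7 and Ak9 were at 638 and 652 CPM against 5.58 and 5.30 CPM, and the projection protein Spef2 at 714 CPM against 8.58 CPM. Armc9, which also acts at the base and tip of primary cilia, was the exception with 219 CPM against 133 CPM.

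Proteins within and along the doublets were higher for 20 of 20 genes (log2 4.04, 4.01 to 4.08). Ttll6, a tubulin polyglutamylase, was at 158 CPM against 0.876 CPM, Cfap43 at 556 CPM against 6.20 CPM with a span that overlaps Itprip on the same strand, and Enkur at 220 CPM against 4.51 CPM. Tektins form filaments in the doublet wall. Tekt1 was at 94.2 CPM and Tekt2 at 6.28 CPM, against 2.23 and 1.26 CPM in other nuclei, and Tekt2 was no longer called after thinning or without clusters 3 and 4 (below). Outside these lists, Cfap299 (chr5:98329304-98802047), a cilia and flagella associated gene whose span includes Gm11111 on the same strand, was at 2091, 1588, 1882, 1344, 2770 and 2262 CPM in libraries 1 to 6 and at 15.1 CPM in all other nuclei.

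Because deeper nuclei show more genes, each nucleus was also thinned to 2000 UMIs, which left out 23 ependymal nuclei that were shallower. The median ependymal nucleus then had 30 of the 90 axonemal genes (quartiles 23 and 35, highest 51), and 41 before thinning. Choroid plexus nuclei had 11 (8 and 13), astrocyte nuclei 2 and Slc17a7 nuclei, a set of excitatory neurons that should lack motile cilia, 2 (1 and 3). The median by library was 32, 29, 29, 25, 36 and 34.5 genes in libraries 1 to 6, against 8.5 to 13 genes in choroid plexus nuclei. After thinning Hydin was detected in 73.9% of ependymal nuclei (69.8 to 77.8%), in 11.3% of choroid plexus nuclei and in 0.381% of Slc17a7 nuclei. Before thinning the Hydin share was 88.2% in ependymal and 4.57% in Slc17a7 nuclei, whose median depth was 14733 UMIs.

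**Figure D2:**
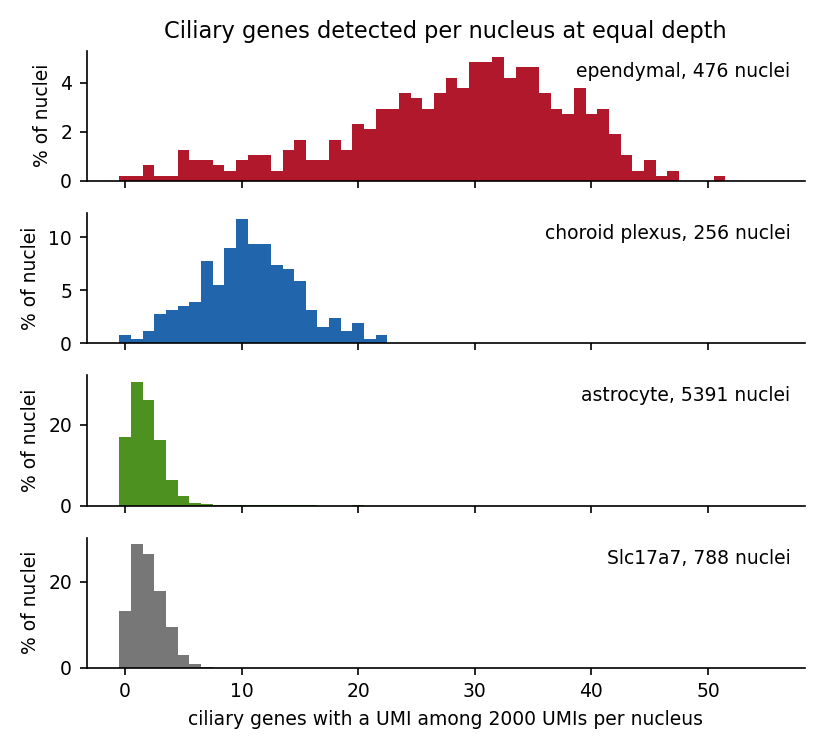
Number of the 90 axonemal genes detected per nucleus after thinning to 2000 UMIs, in ependymal, choroid plexus, astrocyte and Slc17a7 nuclei. The ependymal median is 30 genes, that of choroid plexus nuclei 11, and those of astrocyte and Slc17a7 nuclei are 2 each.

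Intraflagellar transport, which primary cilia share, differed less than the axoneme. The list was at 2204 CPM (1821 to 2807 CPM over libraries) against 831 CPM, a log2 ratio of 1.41 (1.37 to 1.45) with a median of 1.40, and 14 of 20 genes were higher and 0 lower. Over all tested genes 11.7% were higher and 4.73% lower in this comparison. Ift88, a core subunit of the anterograde train, was at 262 CPM against 62.2 CPM and Ift81, a tubulin carrier, at 207 CPM against 45.6 CPM. The retrograde motor heavy chain Dync2h1 was at 353 CPM against 126 CPM.

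Genes that start the multiciliated programme and make the many basal bodies were low in RNA. The list was at 257 CPM (223 to 362 CPM) against 62.3 CPM, with 5 of 14 genes higher, where 11.7% of all tested genes were higher. Myb (chr10:21124935-21160984), a transcription factor that acts early in multiciliated cell fate, was at 49.0, 60.6, 51.9, 43.7, 112 and 75.2 CPM in libraries 1 to 6 and at 1.53 CPM in other nuclei. It was thus present in all 6 libraries, and after thinning it was detected in 13.9% of ependymal nuclei (10.9 to 17.3%) and 0.254% of Slc17a7 nuclei. In choroid plexus nuclei it was detected in 0 of 256, with an interval of 0 to 1.43%. Trp73, a p53 family factor of multiciliated cells, was at 68.2 CPM against 1.78 CPM and Deup1, a scaffold of the deuterosome on which centrioles multiply, at 23.4 CPM against 1.35 CPM. Mcidas and Foxn4, factors of the differentiating multiciliated cell, had 1 UMI each in the 499 nuclei, and Ccno and Cdc20b of the same list had 4 each.

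Of 7 ciliary transcription factors, 4 were higher than in other nuclei and 0 lower (log2 1.67, 1.62 to 1.72, for the sum). Over all tested genes 11.7% were higher and 4.73% lower against other nuclei. Rfx2, a partner of Foxj1 at ciliary promoters, was at 198 CPM against 6.77 CPM, Rfx4 at 245 CPM against 38.3 CPM and Rfx3 at 823 CPM against 351 CPM. The call of Rfx3, like those of the transport genes Ift27 and Traf3ip1, was lost under TMM scaling, which aligns the sets of nuclei by the trimmed mean of their gene ratios. Among 18 transcription factors of radial glia and astroglia, 12 were higher and 0 lower (log2 1.55, 1.52 to 1.58). The calls of Emx2, Gli3, Nfix, Six3 and Zic2 were lost under TMM scaling, those of Gli3 and Six3 also after thinning, that of Six3 also without library 1, 3, 5 or 6 and that of Emx2 without library 2 or 5. Glis3 was at 794 CPM against 68.7 CPM, Sox9, a glial fate factor, at 102 CPM against 14.6 CPM, and Nfia, a gliogenic factor, at 1226 CPM against 377 CPM.

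Among the genes of highest ratio to other nuclei, several are known from cilia and others have no assigned function. The 15 genes with at least 50 UMIs that were at least 2 times higher in each of the 6 libraries and had the highest ratio, leaving out the 6 that chose the nuclei, held 8 protein-coding genes with a symbol of their own, among them the tubulin modifier Ttll6 given above. Unc5cl (chr17:48454901-48539714), which encodes a death domain protein, was at 445, 375, 393, 371, 647 and 545 CPM in libraries 1 to 6 against 1.64 CPM, a ratio of 265 (242 to 291). The neighbouring noncoding gene Gm49896 (chr17:48556733-48572187) had the highest ratio of all, 314 (235 to 420), with 51.9 CPM against 0.166 CPM. Ccdc180 was at 257 CPM against 1.26 CPM and Wdr49 at 585 CPM against 3.34 CPM. Dthd1, which encodes a death domain protein, was at 137 CPM against 0.604 CPM, with 37.1 CPM in the library of lowest level and 260 CPM in that of highest. The others were Gm19301, Gm48500, 4930567H12Rik, Gm10714, Gm47888, 1700012P22Rik, Fam216b, Zfp474 and Spata18.

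**Figure D3:**
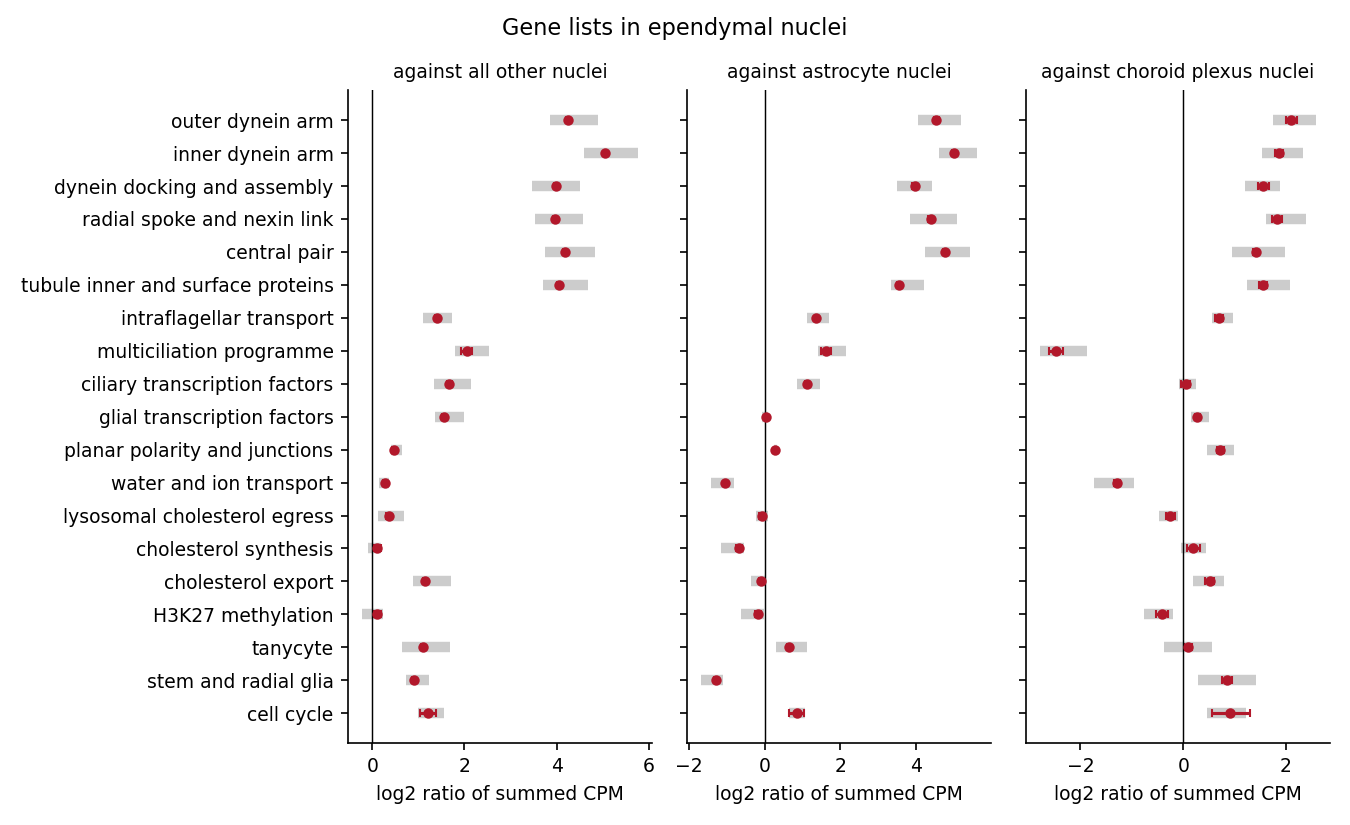
Log2 ratio of the summed CPM of 19 gene lists in ependymal nuclei against all other, astrocyte and choroid plexus nuclei. Points are pooled ratios with exact 95% intervals and grey bars the range over the 6 libraries. The 6 axonemal lists lie between 3.96 and 5.05 against other nuclei, and the multiciliation list lies at -2.47 against choroid plexus nuclei.

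Ependymal nuclei were next set against 258 choroid plexus nuclei, chosen by at least 3 of Folr1, Kl, Clic6, Kcnj13, Slc4a5 and Otx2, at most 2 of the 6 ciliary genes and the same neuronal limit. Both sets express ciliary genes, and the limits on ciliary and choroid plexus genes fix part of the difference. Over all tested genes 7.34% were higher and 4.98% lower in ependymal nuclei, with a median log2 ratio of 0.00462. The 90 axonemal genes summed to 21563 CPM in ependymal and 6922 CPM in choroid plexus nuclei, a log2 ratio of 1.64 (1.61 to 1.67), and the ependymal level was higher in 6 of 6 libraries. The ratio was 0.81 where 2 of the 6 genes were enough. Of the 90 genes 71 were higher and 0 lower, with a median of 2.03.

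The ciliary genes did not differ by a common factor. Dnah5 was 66.9 times higher in ependymal nuclei (35.1 to 147), at 6.41 CPM in choroid plexus nuclei, and Dnah3 was 55.3 times higher (29.9 to 116), at 7.12 CPM. In contrast Spag16, a central pair protein, was at 872 and 897 CPM, a ratio of 0.972 (0.906 to 1.04), and the dynein intermediate chain Wdr78 was at 374 and 357 CPM, a ratio of 1.05 (0.939 to 1.17). Spag16 ranged from 663 to 1290 CPM among the ependymal libraries, wider than its difference between the sets. Drc7, a nexin link gene, was at 92.9 and 115 CPM, and Efhc2, a doublet wall gene, at 49.8 and 71.9 CPM. By group, 9 of 12 inner arm, 6 of 8 outer arm, 13 of 16 docking and assembly, 16 of 19 spoke and link, 10 of 15 central pair and 17 of 20 doublet genes were higher, and 3 of 20 intraflagellar transport genes (Ift172, Ift81 and Ift88).

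**Figure D4:**
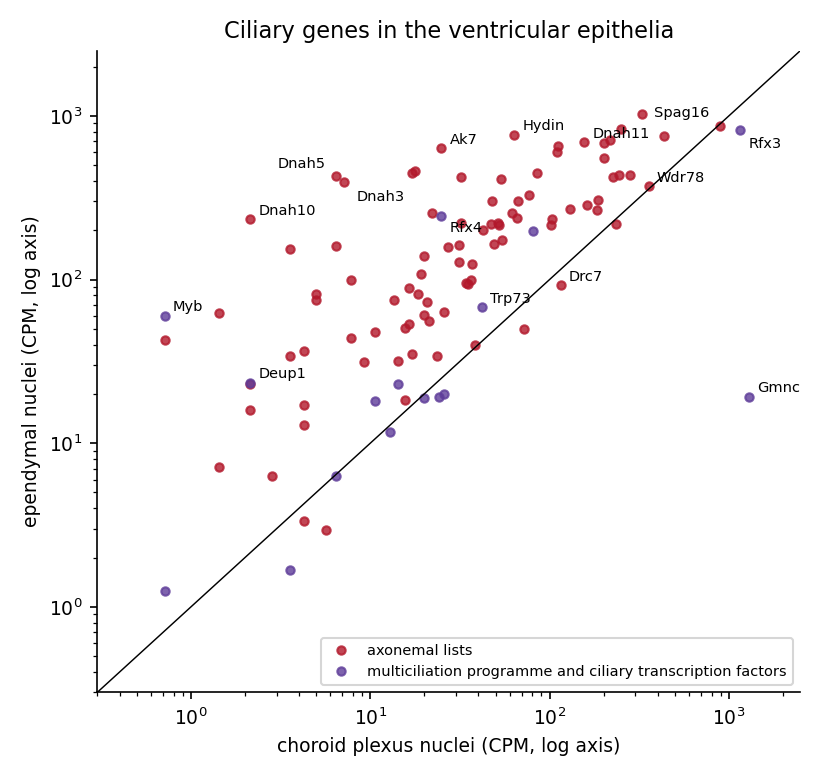
Level in ependymal nuclei (CPM, log axis) against level in choroid plexus nuclei (CPM, log axis) of axonemal genes and of multiciliation and ciliary transcription factor genes with UMIs in both sets, with the line of equal level. Dnah5 and Dnah3 lie far above the line, Spag16 and Wdr78 near it and Gmnc, at 19.3 against 1295 CPM, far below it.

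The early multiciliation gene Gmnc (chr16:26913553-26991652), which encodes the geminin family member GEMC1, went the other way. It was at 12.3, 14.7, 19.8, 29.2, 19.4 and 23.5 CPM in ependymal nuclei of libraries 1 to 6 and at 1295 CPM in choroid plexus nuclei, a log2 ratio of -6.07 (-6.53 to -5.65). All 6 ependymal libraries were thus below 30 CPM, yet above the 6.84 CPM of all other nuclei. After thinning it was detected in 3.36% of ependymal nuclei, 80.9% of choroid plexus nuclei (75.5 to 85.5%) and 0.127% of Slc17a7 nuclei. Myb and Deup1 were higher in ependymal nuclei, at 60.3 against 0.712 CPM and 23.4 against 2.14 CPM. The 2 genes therefore had the opposite direction to Gmnc within a list whose sum was lower (log2 -2.47, -2.61 to -2.34) and whose median was -0.03. Trp73 was at 68.2 and 42.0 CPM and was not called.

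Of the other groups, the 15 choroid plexus markers were lower for 14 genes and higher for 0 (log2 -4.60, -4.64 to -4.55), part of which the rule fixed. Water and ion transport genes split, with 4 higher and 6 lower of 16 (log2 -1.28, -1.34 to -1.23, median -0.02). The water channel Aqp4 was at 196 against 62.0 CPM and the potassium channel Kcnj10 at 80.8 against 22.1 CPM, whereas the bicarbonate transporter Slc4a10 was at 177 against 2147 CPM, the chloride cotransporter Slc12a2 at 66.1 against 500 CPM and the water channel Aqp1 at 0.837 against 27.8 CPM. The transcription factor Rfx4 was 9.84 times higher in ependymal nuclei (7.0 to 14.3), while Glis3 (794 and 919 CPM) and Rfx3 (823 and 1151 CPM) were not called.

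In choroid plexus nuclei 27 genes with at least 50 UMIs in ependymal nuclei had 0 UMIs, and the 10 of highest ratio were those of them with the most UMIs. Gm47888, an antisense gene, was at 136 CPM in ependymal nuclei, at least 63.5-fold higher when the choroid plexus set is given a floor of 3 UMIs. Dpy19l2, known for the sperm head, was at least 58.8-fold higher, Cdhr4, a cadherin-related gene, at least 53.1-fold and Sntn, which encodes sentan of the ciliary tip, at least 28.8-fold. Sspo, which encodes SCO-spondin, the secreted glycoprotein of the subcommissural organ and its Reissner fibre, was at least 30.2-fold higher. It was at 0, 116, 9.89, 52.1, 136 and 127 CPM in libraries 1 to 6, so that library 1 was at 0 where 3 UMIs would be 6.13 CPM, and 134 of its 154 UMIs came from the nuclei of cluster 3, described below. The inflammasome gene Nlrc4 and Traf1, an adaptor of tumour necrosis factor receptors, were at 62.8 and 52.3 CPM and present in all 6 libraries. BC051019, Gm49896 and Acap1 completed the 10. The 10 of lowest ratio were Defb9, Gm36879, Crhr2, Gm48447, Kcne2, Tmem72, 4933429O19Rik, Cdh3, Gm534 and Kl, of which Kl was limited by the rule. Kcne2, a potassium channel subunit of the choroid plexus, had 0 UMIs in ependymal nuclei and 55 in choroid plexus nuclei. Like the other genes at 0 in ependymal nuclei, it met the minimum of 50 UMIs through choroid plexus nuclei alone.

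Ependymal nuclei were also set against 5700 astrocyte nuclei, chosen by at least 3 of Aqp4, Gja1, Fgfr3, Ntsr2, Slc7a10 and Acsbg1. These astrocyte nuclei had at most 1 of the 6 ciliary genes and met the same neuronal limit. The limit on ciliary genes fixes part of the axonemal difference. Over all tested genes 8.22% were higher and 3.43% lower in ependymal nuclei, with a median log2 ratio of 0.05. The sets for astrocytes and choroid plexus shared 24 nuclei. Axonemal genes were higher for 85 of 90 and lower for 0, with the sum at 1015 CPM in astrocytes (log2 4.41, 4.39 to 4.43). The glial transcription factors, by contrast, were at 3565 CPM in ependymal nuclei (3135 to 4273 CPM over libraries) and 3499 CPM in astrocyte nuclei, a log2 ratio of 0.03 (-0.01 to 0.06). Of 18 genes 1 was higher and 4 were lower. Glis3 was at 794 against 333 CPM. The hedgehog effector Gli3 was at 136 against 345 CPM, the Notch target Hes5 at 22.2 against 64.9 CPM and Id3 at 56.5 against 130 CPM, while Emx2 was at 7.53 against 15.2 CPM, a call lost without library 1, 3 or 6. Rfx4, at 245 and 234 CPM, was not called (ratio 1.05, 0.961 to 1.14).

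Astrocyte markers were at 3618 CPM in ependymal nuclei (3179 to 4331 CPM over libraries) and 14562 CPM in astrocyte nuclei, with 9 of 15 lower and 0 higher, part of which follows from how the astrocytes were chosen. The heparan sulphate proteoglycan Gpc5 was at 779 against 5813 CPM, the glutamate transporter Slc1a2 at 1299 against 5191 CPM and the neutral amino acid transporter Slc7a10 at 28.0 against 182 CPM. Against all other nuclei the same markers were higher for 7 of 15 and lower for 0, of which Aldh1l1 and Fgfr3 were no longer called without clusters 3 and 4 (below). Sox9 (102 against 58.9 CPM), the calcium binding protein S100b (93.3 against 59.7 CPM) and Mlc1 (77.0 against 59.1 CPM), a membrane protein of glial junctions, had intervals above those of astrocytes without reaching a ratio of 2. The 10 genes of lowest ratio to astrocytes (A730036I17Rik, Olfr287, Rapgef3os1, Gm15337, Foxo6os, Muc1, Erich5, D930048N14Rik, Rab11fip4os1 and Sds) had 0 UMIs in ependymal nuclei, where 3 UMIs would be 1.26 CPM, and 2.64 to 3.54 CPM in astrocytes. They met the minimum of 50 UMIs through astrocytes alone and were picked by astrocyte UMIs from 25 genes tied at 0. Calls lost after thinning and with no UMI of the excluded genes included those of Erich5, Foxo6os, Gm15337 and D930048N14Rik. Leaving out the genes that chose the nuclei, the 10 of highest ratio were Gm48500, Dydc1, Unc5cl, Gm19301, Gm48387, Glipr1l1, Gm47888, Ccdc180, Gm49896 and Gm10714.

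Genes that align basal bodies across the ependymal sheet or join its cells were higher for 6 of 18 and lower for 0 against all other nuclei (log2 0.48, 0.44 to 0.51, median 0.29, near the 0.31 of all genes). Celsr1 (chr15:85898929-86033777), a planar polarity cadherin, was at 55.1, 47.8, 54.4, 39.6, 73.6 and 65.8 CPM in libraries 1 to 6 and at 3.16 CPM in other nuclei, a ratio of 16.8 (13.9 to 20.2). The polarity protein Vangl1 was at 90.8 against 12.5 CPM, Ccdc88c, which encodes Daple, at 168 against 42.8 CPM and the Wnt receptor Fzd3 at 176 against 60.3 CPM. The same 4 genes were higher than in choroid plexus nuclei (19.9, 19.9, 31.3 and 54.1 CPM) and than in astrocyte nuclei (11.5, 25.5, 58.5 and 68.5 CPM). In all, 7 genes were higher against choroid plexus nuclei, where 7.34% of all tested genes were higher. Against astrocyte nuclei 5 were higher and 1 lower, where 8.22% of all tested genes were higher and 3.43% lower. Against all other nuclei 11.7% of all tested genes were higher.

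Water and ion transport genes were higher for 5 of 16 and lower for 0 against all other nuclei, with the sum at a log2 ratio of 0.27 (0.23 to 0.32), and -0.06 under TMM scaling. The 5 genes were Aqp4, Aqp9, Atp1b2, Kcnj10 and Kcnj16, and 11.7% of all tested genes were higher in this comparison. The call of Atp1b2 was lost under TMM scaling and after thinning, and that of Aqp9 after thinning. Against astrocytes 0 were higher and 4 lower, among them the sodium bicarbonate cotransporter Slc4a4 at 447 against 1497 CPM. Of all tested genes 8.22% were higher and 3.43% lower against astrocytes.

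The gene mutated in the study was measured over both genotypes pooled. Npc1 had 81 UMIs, with 30.6, 51.5, 19.8, 29.2, 27.1 and 42.3 CPM in libraries 1 to 6. The library values lay on both sides of the 29.2 CPM of all other nuclei. The pooled level was 33.9 CPM (26.9 to 42.1), a log2 ratio of 0.22 (-0.12 to 0.53), and Npc1 was called neither higher nor lower against choroid plexus (44.9 CPM) or astrocyte nuclei (35.9 CPM). After thinning it was detected in 5.88% of ependymal nuclei (3.94 to 8.39%), 4.19% of Slc17a7, 6.92% of astrocyte and 7.42% of choroid plexus nuclei. The nih allele and a WT allele cannot be told apart from these counts, and Npc1 levels do not check the genotype labels here.

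Genes of lipoprotein uptake and of cholesterol egress from lysosomes were higher for 2 of 16 and lower for 0 against all other nuclei (log2 0.35, 0.30 to 0.41), where 11.7% of all tested genes were higher. The 2 genes act outside the lysosome, and Npc1, Npc2, Lamp1, Lamp2 and Lipa were not called in this comparison. Lrp2, which encodes the endocytic receptor megalin, was at 32.7, 25.7, 22.3, 37.5, 58.1 and 70.5 CPM in libraries 1 to 6 and at 1.03 CPM in other nuclei, 1.42 CPM in choroid plexus and 1.19 CPM in astrocyte nuclei. Gramd1c, which carries cholesterol from the plasma membrane to the endoplasmic reticulum, was at 165 CPM (123 to 229 CPM over libraries) against 11.6, 15.7 and 24.7 CPM in the same 3 sets. Both were higher in every comparison and in all 6 libraries. Npc2, the lumenal partner of Npc1, was at 28.5 CPM against 20.3 CPM in other nuclei, and the lysosomal lipase Lipa was at 12.6 CPM against 42.0 CPM in choroid plexus nuclei. Against choroid plexus 2 genes were higher and 4 lower, where 7.34% of all tested genes were higher and 4.98% lower. Against astrocytes 2 were higher and 2 lower, where 8.22% of all tested genes were higher and 3.43% lower.

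Cholesterol synthesis genes were called for 0 of 22 in either direction against all other nuclei (log2 0.11, 0.04 to 0.18, under the 0.31 of the median gene, and -0.22 under TMM scaling, -0.080 as a mean share per nucleus and -0.029 without clusters 3 and 4) and against choroid plexus nuclei (0.20, 0.07 to 0.32). Against astrocytes 7 of 22 were lower and 0 higher (log2 -0.67, -0.75 to -0.60, lower in 6 of 6 libraries). Among the 7, the squalene synthase gene Fdft1 was at 28.5 against 70.1 CPM and the methylsterol oxidase gene Msmo1 at 52.7 against 123 CPM. Export genes were higher for 6 of 12 and lower for 0 against all other nuclei (log2 1.15, 1.10 to 1.19). The calls of Apoe, Clu, Nr1h2 and Soat1 were lost under TMM scaling and those of Abca1, Apoe, Clu and Soat1 after thinning, so that Pltp alone kept its call under both. That of Soat1 was also lost without clusters 3 and 4 and that of Clu without library 1. The lipoprotein gene Apoe was at 1115 against 497 CPM, the exporter Abca1 at 160 against 55.5 CPM and the phospholipid transfer gene Pltp at 200 against 50.8 CPM. Pltp was also higher against choroid plexus (89.7 CPM) and astrocyte nuclei (77.6 CPM), while Apoe was at 718 and 1250 CPM there. Of 12 export genes 1 was higher and 0 lower against choroid plexus, and 1 higher and 1 lower against astrocytes. Over all tested genes 7.34% were higher and 4.98% lower against choroid plexus, and 8.22% and 3.43% against astrocytes. Of 9 genes that set or remove H3K27 methylation, the chromatin mark that the study examined, 0 were called against any of the 3 sets. Against all other nuclei 11.7% of all tested genes were higher and 4.73% lower. The summed log2 ratio was 0.11 (0.03 to 0.18) against all other nuclei, under the 0.31 of the median gene. This sum was not put through TMM scaling or the other alternatives. The summed ratio was -0.42 (-0.53 to -0.30) against choroid plexus and -0.19 (-0.27 to -0.11) against astrocytes, lower in 6 of 6 libraries in both.

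Of 15 markers of tanycytes, a related ventricular cell, Nnat and Scn7a were higher and 0 lower against all other nuclei, where 11.7% of all tested genes were higher. Nnat, which encodes neuronatin, was at 1084, 735, 648, 573, 1561 and 1382 CPM in libraries 1 to 6, against 122 CPM, and was detected after thinning in 72.3% of ependymal and 14.6% of Slc17a7 nuclei. The defining tanycyte gene Rax had 1 UMI in all 499 nuclei and Gpr50 had 2. Of 15 markers of stem cells and radial glia, 7 were higher and 0 lower against all other nuclei, 4 higher and 1 lower against choroid plexus and 0 higher and 8 lower against astrocyte nuclei. Of all tested genes 7.34% were higher and 4.98% lower against choroid plexus, and 8.22% and 3.43% against astrocyte nuclei. Of the 7, those no longer called without clusters 3 and 4 included Lrig1, Nes, Slc1a3 and Thbs4, and these clusters are described below. Calls lost after thinning included those of Lrig1, Nes, Prom1 and Slc1a3. Nes was also lost without library 6, Slc1a3 without library 5 or 6 and Thbs4 without library 1. Prom1, which encodes a protein of ciliary and apical membranes, was at 65.3 CPM against 24.4, 12.8 and 46.6 CPM in the 3 sets.

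Cell cycle genes were scarce, at 112 CPM (94.0 to 141 CPM over libraries) against 48.4 CPM, with 4 of 15 higher and 0 lower, where 11.7% of all tested genes were higher and 4.73% lower. Kif11, a kinesin of the mitotic spindle, was at 34.7, 25.7, 32.2, 33.3, 50.4 and 56.4 CPM in libraries 1 to 6 and at 3.54 CPM in other nuclei, a ratio of 10.0 (7.98 to 12.5). It was thus higher in all 6 libraries and made up a large part of the sum. The calls of the other 3 genes (Cenpf, Mcm6 and Top2a) were lost after thinning, that of Cenpf also at 2 of the 6 genes and that of Top2a, a DNA topoisomerase, also under TMM scaling, without clusters 3 and 4 and without library 1 or 2. Mki67, the general marker of dividing cells, was at 5.86 CPM against 4.68 CPM and was detected after thinning in 3 of 476 ependymal nuclei (0.630%).

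RNA of other cell types was present in the ependymal nuclei. Excitatory neuron markers were at 3576 CPM (1817 to 5048 CPM over libraries) against 8257 CPM in all other nuclei and 12369 CPM in Slc17a7 nuclei, with 6 of 10 lower and 0 higher. Inhibitory neuron markers were at 996 CPM against 2359 CPM (3 of 10 lower). The limit on Slc17a7, Slc17a6, Gad1 and Gad2 fixes part of both, and the calls of these 4 genes were lost without it. Oligodendrocyte markers were at 2201 CPM, from 640 to 3565 CPM over libraries, against 1568 CPM, with 0 of 10 called. They ranged from 501 to 2665 CPM over libraries in all other nuclei, and libraries 1, 2 and 5 were high and 3, 4 and 6 low in both sets. Progenitor, vessel and neuroblast markers were at 1069, 720 and 554 CPM against 1276, 609 and 576 CPM, with 1 progenitor marker lower, 0 vessel markers called, and 1 neuroblast marker higher and 1 lower. Microglia markers were at 266 CPM against 185 CPM, with Cx3cr1 and Dock8 higher and Inpp5d and Siglech lower. The span of Cx3cr1 overlaps several genes, among them the ciliary gene Ttc21a on the other strand. Choroid plexus markers were at 1761 CPM against 1737 CPM, with 4 of 15 higher and 3 lower. The limit on Folr1, Kl and Clic6 bears on these counts. The higher call of Folr1 was lost with no UMI of the excluded genes, and the lower call of Kl held in 7 of 16 alternatives. Over all tested genes 11.7% were higher and 4.73% lower against all other nuclei. The part of these RNAs in the results above was not tested, but axonemal levels without the nuclei richest in astrocyte and neuron markers are given next.

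Within the 499 nuclei, Leiden clustering gave 4 clusters, which are described by number and were not tested. Cluster 1 (160 nuclei, led by mitochondrial transcripts such as mt-Cytb) and cluster 2 (149 nuclei, led by Cmss1, Ccdc190 and Pih1d2) had 25723 and 34657 CPM of axonemal genes. Cluster 3 (107 nuclei, median 5986 UMIs, led by Zfp366, Fli1, Morrbid and Sspo, with the endothelial gene Flt1 among its first 10) had 14387 CPM with 6062 CPM of astrocyte markers, and 43.9% of its nuclei were among the highest 10% of doublet scores of their library. Cluster 4 (83 nuclei, led by Dgkg, Htr2c and Rbfox1) had 12360 CPM with 7429 CPM of excitatory neuron markers, and 59 of its nuclei came from library 4. Of cluster 1, 61 nuclei came from library 2 and 52 from library 3, so that clusters and libraries were not independent. After thinning the median number of axonemal genes was 31, 37, 22 and 22 in clusters 1 to 4, each above the 2 of Slc17a7 nuclei. Without clusters 3 and 4 the axonemal log2 ratio to other nuclei was 4.73 and that to choroid plexus nuclei 2.13.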

How the data were processed

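Nuclei of frozen forebrain from 3 WT and 3 Npc1-/- mice at postnatal day 16 were captured with droplet 3′ chemistry. The deposited matrix held raw UMI counts of 32285 genes in 75878 barcodes, aligned by the authors to mm10. Its header names Cell Ranger 6.0.0, the submitters' processing notes name version 2.1.1, and the methods describe STARsolo with removal of empty droplets and doublets, so which steps made the deposited counts is not known. The design text names about 10000 cells per sample, and the libraries held 8215 to 16109 nuclei. Of the barcodes, 11 were left out for a mitochondrial share of 10% or more.

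The members and gene lists were chosen with earlier results of these data known. Counts were summed per set of nuclei and library and divided by all UMIs of the set (CPM). Genes with at least 20 UMIs were compared by the exact conditional interval of the ratio of 2 counts at 95%, without a test or model over libraries. No barcode number could be assigned to a mouse, so genotypes were not compared, and between sets of nuclei the count of libraries in each direction is given. The calculation was tested on simulated data with independent counts, which held no spread between nuclei, libraries or mice. Named genes were the members of 29 lists, the 15 of highest ratio to other nuclei with at least 50 UMIs and a ratio of at least 2 in each library, and the 10 of highest and of lowest ratio to choroid plexus and astrocyte nuclei with at least 50 UMIs in both sets together, each without the 6 ciliary genes of the rule, ordered by UMIs where ratios were tied at 0. Slc17a7 nuclei (788) had at least 5 Slc17a7 UMIs, no Gad1 or Gad2 UMI and at most 1 of the 6 ciliary genes. Doublets were scored per library with scrublet in scanpy 1.11.5. Its threshold marked 15 of 75867 nuclei (0.0198%) and had not worked, so no nucleus was removed and only the rank of the score was used. Clusters came from the Leiden algorithm on 15 principal components with 15 neighbours and resolution 0.5. Positions are from GENCODE and promoters from RefSeq, both GRCm38. Alternatives changed the rule, the scaling, the fold, the minimum of UMIs, the depth, the weight of nuclei and the libraries. The alternatives without the neuronal limit, without clusters 3 and 4 and without shared barcodes, and the order of tied genes, were chosen after seeing the data.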

Additional observations from a re-analysis of the deposited data

Results flagged for a closer look

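One value among 32 examined stood apart from its group: the summed level of the 10 oligodendrocyte progenitor markers in the ependymal nuclei of library 1 was 1603 CPM, while the other 5 libraries lay between 842 and 1008 CPM. Among 6 values, the gap between the highest and the next was large relative to the whole range (a ratio of 0.781). By chance about 1 in 20 such groups is picked out, and the difference was not tested.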

How the results depend on the processing

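The deposited matrix limits the results to pooled nuclei of both genotypes, with 52 to 109 ependymal nuclei per library, and genes under 10 UMIs in ependymal nuclei could not be called higher. No paired analysis was possible because the replicate numbers in the labels are not on the barcodes, a limit that holds for genotypes only. The sets of nuclei occur together in each library and could be paired by library. They were compared within each library as counts of libraries. No model over libraries was fitted, and no result came from a test. The share of ependymal nuclei (0.658%) was 1.11% at 2 or more of the 6 genes, 0.543% at 4 or more, 0.361% with no UMI of the excluded genes, 0.921% without the neuronal limit and 0.407% without clusters 3 and 4. The 2808 genes higher than in other nuclei became 1265 at a 4-fold minimum. The axonemal log2 ratio to other nuclei (4.24) was 3.91 with TMM scaling, 3.42 and 4.33 at 2 and 4 of the genes, 4.32 with no excluded UMI, 4.42 without the highest 10% of doublet scores, 4.37 after thinning, 4.38 as a mean share per nucleus, 3.75 without the neuronal limit, 4.73 without clusters 3 and 4 and 4.14 to 4.33 leaving out 1 library. That to choroid plexus nuclei (1.64) was, in the same order without TMM scaling, 0.81, 1.74, 1.78, 1.70, 1.70, 1.72, 1.10, 2.13 and 1.56 to 1.73. The glial transcription factor ratio to astrocytes (0.03) was -0.038 with TMM scaling, -0.46 at 2 of the genes, 0.12 with no excluded UMI, -0.035 without high doublet scores, -0.039 after thinning, -0.034 as a mean share, -0.23 without the neuronal limit and 0.16 without clusters 3 and 4. Signs changed for glial transcription factors against choroid plexus at 2 of the genes (-0.22), for water and ion transport (-0.057) and cholesterol synthesis (-0.22) against other nuclei with TMM scaling, for cholesterol synthesis as a mean share (-0.080) and without clusters 3 and 4 (-0.029), and for cholesterol export against astrocytes without them (0.047). The causes were not tested. Npc1 was never called. For sums of gene lists the alternatives covered 45 ratios, those of the lists from the dynein arms to cholesterol export. Sums of the H3K27 methylation, tanycyte, stem and radial glia, cell cycle, ependymal marker and other cell type lists were not put through them. Over the 17 alternatives that bear on the 45 ratios, 430 of 765 values stayed within the counting interval of the main value. Another 329 left that interval and 6 changed sign. The spread between libraries did not enter this count. The 6 leave out ratios whose own interval held 0, such as that of glial transcription factors to astrocytes. Of 223 named genes called against other nuclei, 221 or more kept their direction and 181 or more their call in every alternative with calls per gene.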
